A study of Gallus gallus with 8 samples.

Results

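Transcripts of the Wnt pathway were followed in chick ectoderm: the Wnt ligands, the R-spondins, the Frizzled and LRP receptors, the secreted antagonists, and the core cytoplasmic and nuclear effectors. The members were all genes whose symbol in the probe annotation belongs to the WNT, FZD, SFRP, DKK or RSPO families, together with FRZB, WIF1, LRP5, LRP6, LEF1, TCF7L1, TCF7L2, AXIN1, AXIN2, CTNNB1 and APC. TCF7, which the rule also names, is not analysed here. This gave 49 genes on 97 probe sets, of 13009 named genes and 38439 probe sets in all. The members comprised 18 ligands, 3 R-spondins, 12 receptors, 9 secreted antagonists and 7 effectors.

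The study asked which genes mark the ectoderm that forms the inner ear, and which of them respond to fibroblast growth factor (FGF). RNA was measured in 4 groups with 2 arrays each. Otic ectoderm, the tissue of the future inner ear, and the lateral ectoderm beside it, which includes future epidermis, were taken fresh from embryos at stage 10. Trigeminal ectoderm, which lies further forward and normally contributes to the trigeminal sensory ganglion, was taken at stage 8 and kept for 18 hours in collagen gels in a serum-free defined medium (DMEM/F12 with N2 supplements), either without FGF2 or with FGF2 at 50 ng/ml. No group carried a transgene or genetic change. Each array held the RNA of many pooled tissue pieces, amplified in 2 cycles, and the labels do not say whether the 2 pools of a group came from separate rounds of dissection, so a p-value here measures the spread between these arrays.

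Wnt ligands are secreted glycoproteins that bind Frizzled receptors. In the canonical branch they engage the co-receptors LRP5 and LRP6, which stops the destruction complex of Axin and APC from degrading β-catenin, and β-catenin then acts on target genes with the TCF and LEF transcription factors. R-spondins raise the response by keeping Frizzleds on the cell surface, whereas SFRPs, WIF1 and most Dickkopf proteins lower it outside the cell. In the head of chick and mouse embryos Wnt signalling acts after FGF in the ectoderm beside the hindbrain, where it favours otic placode over epidermis.

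Median intensities of the 8 arrays lay between 25.6 and 31.7, and 2.3 to 2.9% of probe sets lay below the floor of 1 that was set before taking log2. Over all probe sets the median log2 difference was 0.19 between otic and lateral ectoderm, 0.10 between the FGF2 groups and 0.01 between cultured and fresh tissue. Of 8 otic markers 5 were higher in otic than in lateral ectoderm, against 4.86% of all genes, and HMX3, DLX5 and EYA1 were not called. The otic gene GBX2 lay at 8359.8 and 8846.3 on the otic arrays against 303.8 and 454.6 on the lateral ones. SOX10, also among the 5, was not particular to otic ectoderm. It read 50.5 and 117.1 there and 1228.4 or more on the cultured arrays. Of 8 FGF response genes, 6 were higher with FGF2 than without it. In the cultured tissue 6 of 8 trigeminal markers were higher than in fresh tissue, against 5.27% of all genes. OTX2, among the 6, was not particular to the cultured tissue. It read 1575 and 1336.3 on the otic arrays, above the lowest cultured value of 1106.1. The 6 also included PAX3, which marks the ophthalmic part of the trigeminal placode. It read 13.7 to 34.4 in cultured and 2.8 to 11.1 in fresh tissue. PAX3 was dim: its cultured values of 13.7 and 18.6 lay below their array medians of 27.6 and 29.3. Far brighter in culture were PAX6 and SIX3 of the same list, at 967.8 or more, which are genes of the anterior head and eye field. The log2 ratio of 3′ to 5′ control probe sets, a measure of RNA quality, separated some groups: for GAPDH it was 1.69 to 1.91 in otic, 2.16 to 2.24 in lateral and 1.08 to 1.75 in cultured ectoderm, and for actin 1.32 to 1.36, 1.02 to 1.10 and 1.20 to 1.42. Its part in the results below was not tested.

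An array reading is a fluorescence intensity with no fixed unit, so each gene is compared only with itself between samples, on its brightest probe set (the one with the highest mean log2 intensity), unless another is named. As a rough guide to detection, 26 of the 49 members lay above the array's own median on all 8 arrays, 18 on some and 5 on none. Of all 13009 genes, 59.9% lay above it on all 8. Effectors were above it on all arrays for 6 of 7 genes and receptors for 8 of 12. Among the ligands 7 of 18 were, namely WNT3A, WNT4, WNT5A, WNT5B, WNT6, WNT11 and WNT16. WNT7B, WNT9A, WNT10A, WNT11B and the antagonist SFRP5 did not exceed the array median anywhere.

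**Figure D1:**
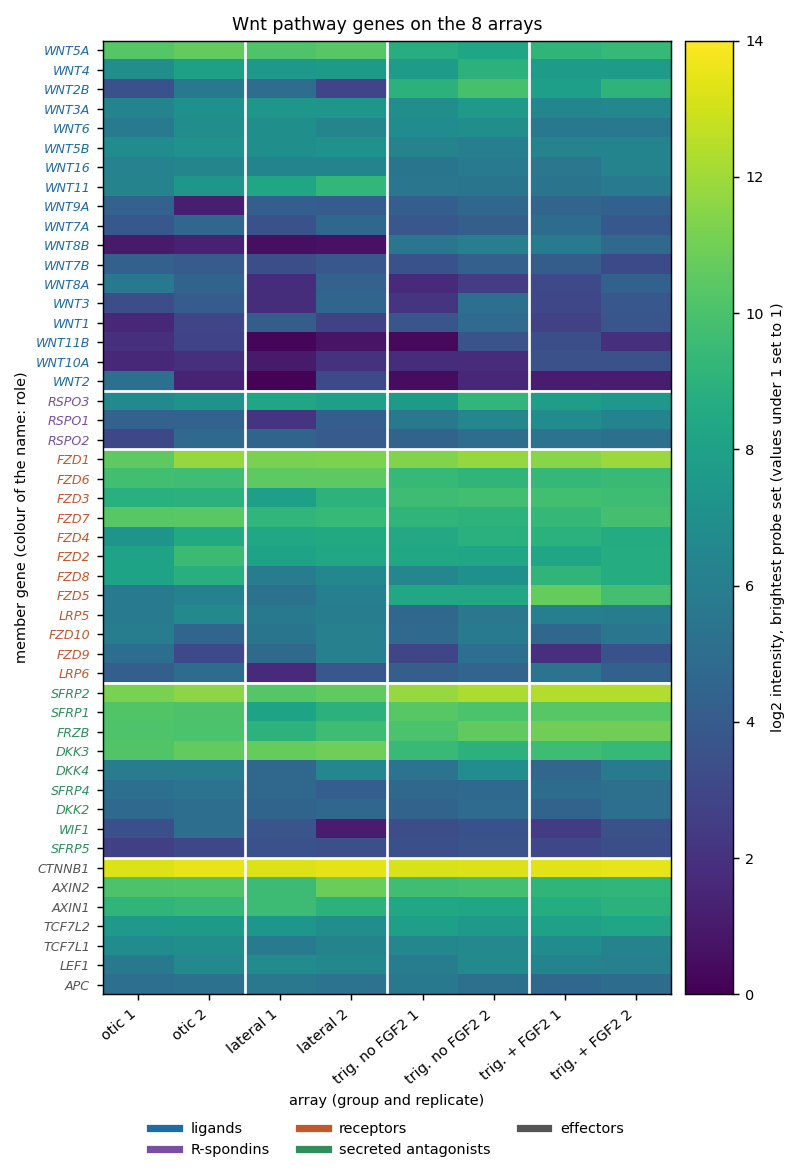
Log2 intensity of the brightest probe set of each of the 49 members (rows, ordered by role, with the role given by the colour of the name) on each of the 8 arrays (columns, by group). WNT2B, WNT8B and FZD5 are brighter on all 4 cultured arrays than on all 4 fresh ones.

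The first comparison asked which pathway genes separate the otic from the neighbouring lateral ectoderm. FZD8, SFRP1 and FZD7 were higher in otic ectoderm, and WNT11 was lower. A gene was called when its fold exceeded 2 and its unadjusted p from limma (two-sided, one model over 8 arrays) was below 0.05. By this rule 3 of 49 members (6.12%) were higher, against 632 of 13009 genes (4.86%), and 1 member (2.04%) was lower, against 344 genes (2.64%), so both shares were near those of all genes. Of all called genes 64.8% were higher in otic ectoderm, but 45.1% when each array was centred on its median, so the balance of directions depends on the scaling. None passed a Benjamini-Hochberg adjusted p of 0.05 in limma, and neither did any other gene. At an unadjusted p below 0.05 there were 6 of the 49 members, and 1055 of 13009 genes (8.11%).

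FZD8 codes for a Frizzled receptor. It read 280.6 and 442.7 on the otic arrays against 61.5 and 91.6 on the lateral ones. Both otic values lay well above both lateral values, and the log2 difference was 2.23 (SE 0.45, adjusted p = 0.26). FZD7, another Frizzled, read 1301.3 and 1373.6 in otic and 596.6 and 676.9 in lateral ectoderm. Its groups did not overlap either, but the difference of 1.07 (SE 0.35, adjusted p = 0.49) was close to the limit and was 0.88 when the arrays were brought to a common median. It was 1.03 without otic array 2 and 0.98 without lateral array 1, neither a call. The same scaling gave FZD8 and SFRP1 a call in the same direction. FZD8 and SFRP1 are also listed by the study from these arrays, so their difference here is not independent of its choice.

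SFRP1 is a secreted protein that binds Wnts through a domain like that of the Frizzleds. It read 1193.7 and 1097.9 on the otic arrays and 273.5 and 519.9 on the lateral ones. The lateral arrays were thus the low ones, and they differed more from each other than the otic pair did. The log2 difference was 1.60 (SE 0.42, adjusted p = 0.39), and a second SFRP1 probe set gave 1.38 (SE 0.38). The related SFRP2 read 2332.2 and 3017.1 against 1251.6 and 1510.6, a log2 difference of 0.95 (SE 0.36, adjusted p = 0.56) that stayed just under the fold limit. FRZB, also called SFRP3, had a difference of 0.71 (SE 0.38) and SFRP4 of 0.79 (SE 0.35), neither past the limits. DKK3, a divergent Dickkopf whose part in Wnt signalling is unclear, read 1177.8 and 1596.1 against 1655.0 and 1915.6, and was not called.

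WNT11 codes for a ligand best known from cell movements in the gastrula, through signalling that does not need β-catenin. It read 75.8 and 167.7 in otic and 316.7 and 621.6 in lateral ectoderm. All otic values lay below all lateral ones, although within each group the arrays differed by about as much as the gap between the groups. The log2 difference was -1.98 (SE 0.53, adjusted p = 0.40), and without lateral array 2 it was -1.49 and past the fold limit only. The 2 other WNT11 probe sets gave -0.12 (SE 0.59) and -1.03 (SE 0.69), neither called. In tissue of mixed composition, fewer cells with a transcript and less transcript per cell cannot be told apart, here and in the comparisons that follow.

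Some markers of other cell types differed in this comparison too. Of 11 endothelium and blood markers 5 (45.5%) were lower in otic ectoderm, against 2.64% of all genes. The summed intensity of all 11 was 2410 to 2780 on the otic and 4340 to 6360 on the lateral arrays. The summed intensity of 11 mesenchyme markers was 2580 to 4890 in otic and 7020 to 8790 in lateral ectoderm, with 1 marker higher and 1 lower. Most of the gap between these sums lay in COL3A1. It read 131.6 and 691.6 in otic and 3056.2 and 4681.1 in lateral ectoderm, so the sums do not show a shift of the whole list. Of 9 epidermis markers 6 were lower in otic ectoderm. No endoderm or notochord marker of 10 was called. Their sums were 1560 to 3340 in otic and 3530 to 5680 in lateral ectoderm, with TTR at 453.0 and 1774.4 against 4391.8 and 2220.6. Neural tube markers summed to 3180 to 4320 on the otic and 920 to 1600 on the lateral arrays, with 1 of 8 called higher (SOX3, 2.33). Of 8 trigeminal markers OTX2 was higher (3.45) and SIX3 lower (-1.36), with SIX3 at 41.3 or less on these arrays. Of 7 neural crest markers 2 were higher, TFAP2B and SOX10, which the otic list also holds, but their sums overlapped (714 to 1630 in otic and 938 to 1420 in lateral ectoderm). The part of these cells in the FZD8, FZD7, SFRP1 and WNT11 values was not tested.

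Some members had values just outside the limits. FZD6, a Frizzled with roles in tissue polarity, read 860.0 and 825.0 in otic and 1476.7 and 1478.2 in lateral ectoderm, with close replicates, groups that did not overlap and a log2 difference of -0.81 (SE 0.32, adjusted p = 0.58). RSPO3, an R-spondin, read 102.9 and 142.2 against 305.6 and 240.7, a difference of -1.16 (SE 0.57, adjusted p = 0.67). Its otic values were both below its lateral ones, and a dimmer RSPO3 probe set passed the limits at -1.89 (SE 0.64). WNT8A, a canonical ligand of the early hindbrain, read 49.9 and 22.3 against 3.5 and 20.9, with a difference of 1.96 (SE 0.95, adjusted p = 0.67) that rested mostly on the low value of lateral array 1. LRP6 read 18.9 and 30.5 against 3.2 and 14.2, a difference of 1.83 (SE 0.77, adjusted p = 0.61), and it exceeded the array median on 1 of the 8 arrays. A dim FZD3 probe set was called higher in otic ectoderm, at the limit (1.00, SE 0.39). The brightest FZD3 probe set gave 0.44 (SE 0.45) and the other 2 gave 0.97 and -0.40, none called.

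No effector was called between otic and lateral ectoderm. CTNNB1, which codes for β-catenin, read 9899.9 and 11299.4 in otic and 9956.2 and 11031.4 in lateral ectoderm, a log2 difference of 0.01 (SE 0.32). AXIN2, an inhibitor of the pathway that is also a widely used readout of it, read 1110.0 and 1120.2 in otic ectoderm. Its lateral values of 765.3 and 1856.2 lay on either side of both, and the difference was -0.10 (SE 0.48). LEF1, the transcriptional partner of β-catenin, read 49.7 and 96.1 against 107.7 and 93.3, with a difference of -0.54 (SE 0.46) and overlapping groups. TCF7L1, a TCF that often represses, had a difference of 0.88 (SE 0.38, adjusted p = 0.62). A dim AXIN1 probe set was called lower at -2.24 (SE 0.91). The brightest AXIN1 probe set gave -0.08 (SE 0.37) and the next brightest 0.53 (SE 0.39), neither called. Over all members 15 lay with both otic arrays above both lateral ones (30.6%, against 26.5% of all genes) and 7 with both below (14.3%, against 11.1%), and the median member difference of 0.24 was close to the median of 0.19 over all genes.

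**Figure D2:**
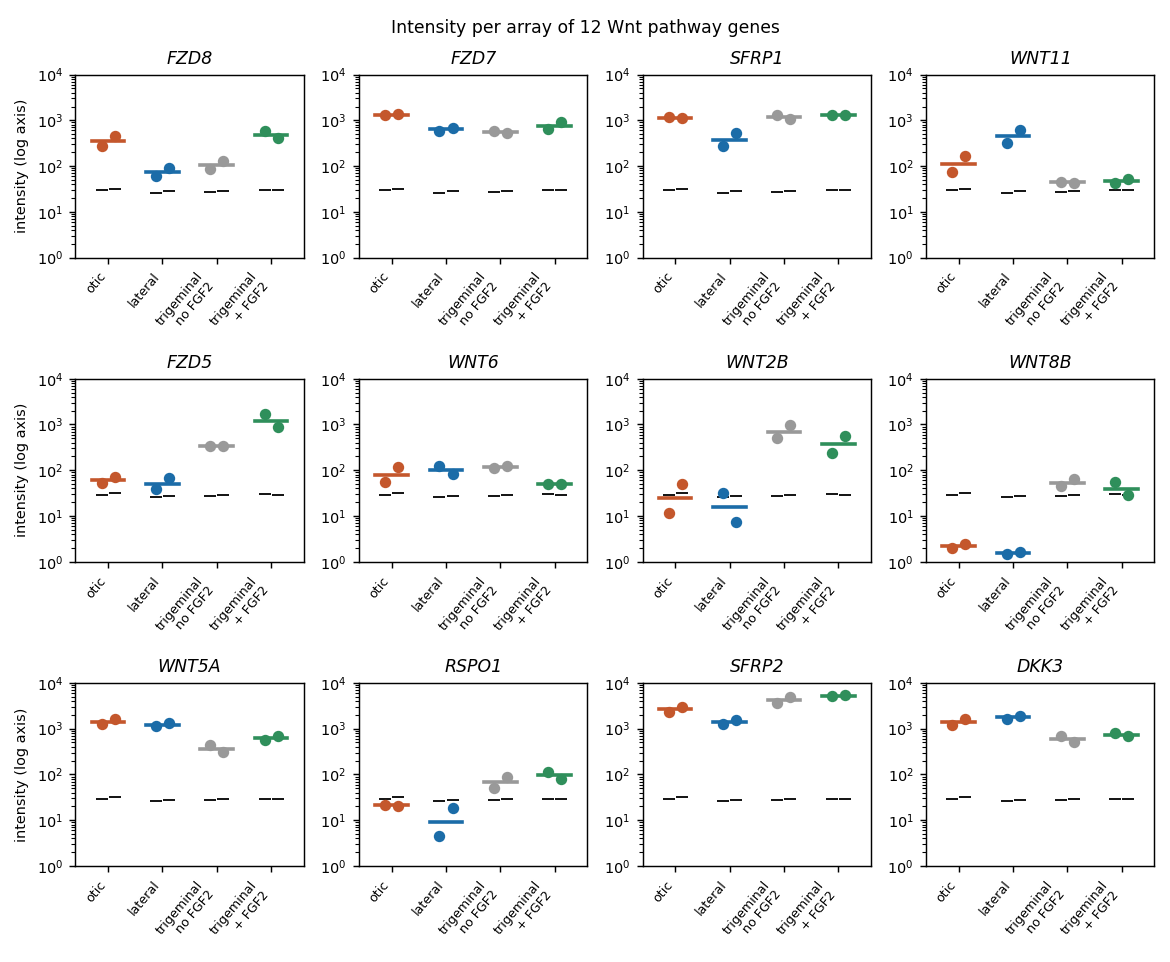
Intensity (log axis) of 12 members on each array, by group. Dots are the 2 arrays of a group, the bar is their geometric mean, and the short black dash is the median of that array over all probe sets. FZD8 is high in otic ectoderm and with FGF2, FZD5 is higher in culture than in fresh tissue and highest with FGF2, and WNT8B lies below the dash on all 4 fresh arrays.

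The second comparison asked what 18 hours with FGF2 did to trigeminal ectoderm. FZD8 was higher with FGF2, as were FZD5 and WNT10A, and WNT6 was lower. The 3 higher members were 6.12% of the 49, against 2.14% of all genes (279), and the 1 lower member was 2.04%, against 1.48% (192). None had an adjusted p below 0.05 in limma, nor did any other gene. An unadjusted p below 0.05 was found for 4 of the 49 members and 510 of 13009 genes (3.92%). The groups did not overlap for 14 members with FGF2 above (28.6%, against 28.4% of all genes) and 5 with FGF2 below (10.2%, against 11.6%).

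FZD8 read 88.2 and 131.0 without FGF2 and 570.2 and 407.6 with it. Each treated array was more than 3 times as bright as each untreated one, and the log2 difference was 2.17 (SE 0.45, adjusted p = 0.41), close to the 2.23 between otic and lateral ectoderm. The groups of the 2 comparisons share no array. Untreated trigeminal and lateral ectoderm formed the low pair of groups and otic and treated trigeminal ectoderm the high pair. The second FZD8 probe set went the other way, at 19.0 and 22.8 without and 3.9 and 3.4 with FGF2 (log2 difference -2.51, SE 0.52). It lay under the array median on all 8 arrays, so the 2 FZD8 probe sets disagreed on the direction with FGF2, and the call above is that of the brighter one.

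FZD5, the closest relative of FZD8, read 335.5 and 330.3 without FGF2 and 1655.4 and 899.4 with it. The untreated pair agreed closely, and both treated arrays lay far above it, for a log2 difference of 1.87 (SE 0.47, adjusted p = 0.57). Between otic (53.8 and 70.4) and lateral ectoderm (38.3 and 66.2) the ranges of FZD5 overlapped, with a difference of 0.29 (SE 0.47). Its 2 dimmer probe sets gave -0.93 (SE 1.08) and 0.64 (SE 0.68) with FGF2, neither called. The study names FZD8, FZD5 and FZD7 as FGF-responsive from these arrays, so none of their FGF2 values is independent of that choice.

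Some markers of other cell types were called with FGF2 too. Of 11 mesenchyme markers 3 (27.3%) were higher with FGF2, against 2.14% of all genes. The summed intensity of all 11 was 2920 to 2990 with and 1740 to 2950 without FGF2, so the ranges overlapped. Their median difference of 0.17 was close to the 0.12 over all genes, so these calls do not show a shift of the whole list. Of 11 endothelium and blood markers 1 was higher, with sums of 584 to 650 and 434 to 499, and 2 of 8 neural tube markers were higher. No epidermis, trigeminal, neural crest, endoderm or notochord marker was called. Their part in the FZD8, FZD5, WNT10A and WNT6 values was not tested.

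WNT10A, a ligand of skin appendages, read 3.6 and 3.4 without FGF2 and 11.2 and 11 with it. The replicates were tight and the log2 difference was 1.67 (SE 0.44, adjusted p = 0.62), but all of these values lie below the array medians of 27.6 to 29.5. With an offset of 32 added before the log2 the difference was 0.28 and no longer called. WNT6, a ligand of the surface ectoderm, read 113.1 and 122.3 without and 50.6 and 49.9 with FGF2. Both treated arrays lay below both untreated ones and the difference was -1.23 (SE 0.46, adjusted p = 0.90). In fresh tissue the ranges of WNT6 overlapped, with 55.6 and 116.1 on the otic and 123.3 and 83.3 on the lateral arrays. Without any one of the 4 trigeminal arrays the WNT6 difference lay between -1.28 and -1.17, with an unadjusted p above 0.05. WNT10A and WNT6 are next to each other in the order of protein-coding genes of the chicken RefSeq annotation, as are WNT3A and WNT9A.

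Among ligands that were not called, WNT5A, which signals mainly without β-catenin, read 429.6 and 303.1 without and 575.9 and 675.9 with FGF2, a log2 difference of 0.79 (SE 0.36, adjusted p = 0.98). WNT3A, a canonical ligand of the dorsal neural tube, read 122.2 and 190.7 without and 84.4 and 93.4 with FGF2 (-0.78, SE 0.41, adjusted p = 1). Its treated arrays lay below its untreated ones, and a second WNT3A probe set was called at -1.24 (SE 0.44). WNT11, lower in otic ectoderm, read 44.9 and 42.9 without and 41.8 and 52.2 with FGF2, a difference of 0.09 (SE 0.53).

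The antagonists and R-spondins showed no call with FGF2. SFRP1 read 1330.7 and 1046.6 without and 1326.7 and 1326.2 with FGF2, a log2 difference of 0.17 (SE 0.42). Its untreated trigeminal values lay on either side of the otic ones (1193.7 and 1097.9). Both were above the lateral values of 273.5 and 519.9. FRZB read 1067.6 and 1517.7 without and 2034.3 and 1982.4 with FGF2 (0.66, SE 0.38), without overlap but under the fold limit. The receptor gene FZD7 was not called either, at 578.8 and 530.9 without and 640.7 and 919.3 with FGF2, a difference of 0.47 (SE 0.35). Its other probe sets gave -0.02 and 0.39. The study reports FZD7 as induced by FGF2, which no FZD7 probe set bears out under the limits used here. RSPO3 read 198.5 and 593.6 without FGF2, the widest replicate gap of the R-spondins in these groups, and 224.9 and 176.7 with it.

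The effectors also had no call. CTNNB1 read 9082.4 and 9933.4 without and 10515.0 and 11435.6 with FGF2, a log2 difference of 0.21 (SE 0.32). AXIN2 read 843.6 and 899.9 without and 563.9 and 602.3 with FGF2, so that both treated arrays were below both untreated ones (-0.58, SE 0.48, adjusted p = 1). LEF1 read 62.2 and 99.3 against 78.2 and 68.9 (-0.10, SE 0.46), with overlapping groups. A dim AXIN1 probe set was called at -1.44, whereas the brightest AXIN1 probe set gave 0.50 (SE 0.37).

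A direct test of the difference between the otic effect and the FGF2 effect called SFRP1 and WNT11 among the members. For SFRP1 the otic effect exceeded the FGF2 effect by 1.43 on the log2 scale (SE 0.59, adjusted p = 0.82). For WNT11 the difference of the effects was -2.07 (SE 0.75, adjusted p = 0.76). The 1 member called higher stands against 2.5% of all genes and the 1 called lower against 2.24%, and leaving out single arrays removed both calls, WNT11 without otic array 1 (-1.49), for example, and SFRP1 without lateral array 1 (0.97). Of all genes called in this test 52.7% had the larger otic effect, and 41% after median centring. FZD5 had a difference of -1.58 (SE 0.66, adjusted p = 0.82), larger in size than that of SFRP1. Its unadjusted p in limma, 0.0516, just missed the limit. With median centring FZD5 was called and SFRP1 was not, so the 2 calls do not set SFRP1 apart from FZD5.

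The third contrast set the cultured trigeminal ectoderm, with and without FGF2, against the fresh otic and lateral ectoderm. The culture itself, the earlier stage at dissection and the more anterior position cannot be told apart in it. It held the widest differences of the pathway: WNT2B, WNT8B, FZD5, RSPO1, SFRP2 and FZD3 were higher in the cultured tissue, and WNT11, WNT5A and DKK3 were lower. The 6 higher members were 12.2%, against 5.27% of all genes (685), and the 3 lower ones 6.12%, against 4.37% (569). With Benjamini-Hochberg adjustment in limma 2 members remained higher (FZD5 and WNT8B), against 66 genes higher (0.507%) and 43 lower (0.331%) in all. With any 1 array left out neither passed, at adjusted p values of 0.079 to 0.13 for FZD5 and 0.055 to 0.099 for WNT8B. An unadjusted p below 0.05 was reached by 15 of the 49 members, and by 1762 of 13009 genes (13.5%).

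**Figure D3:**
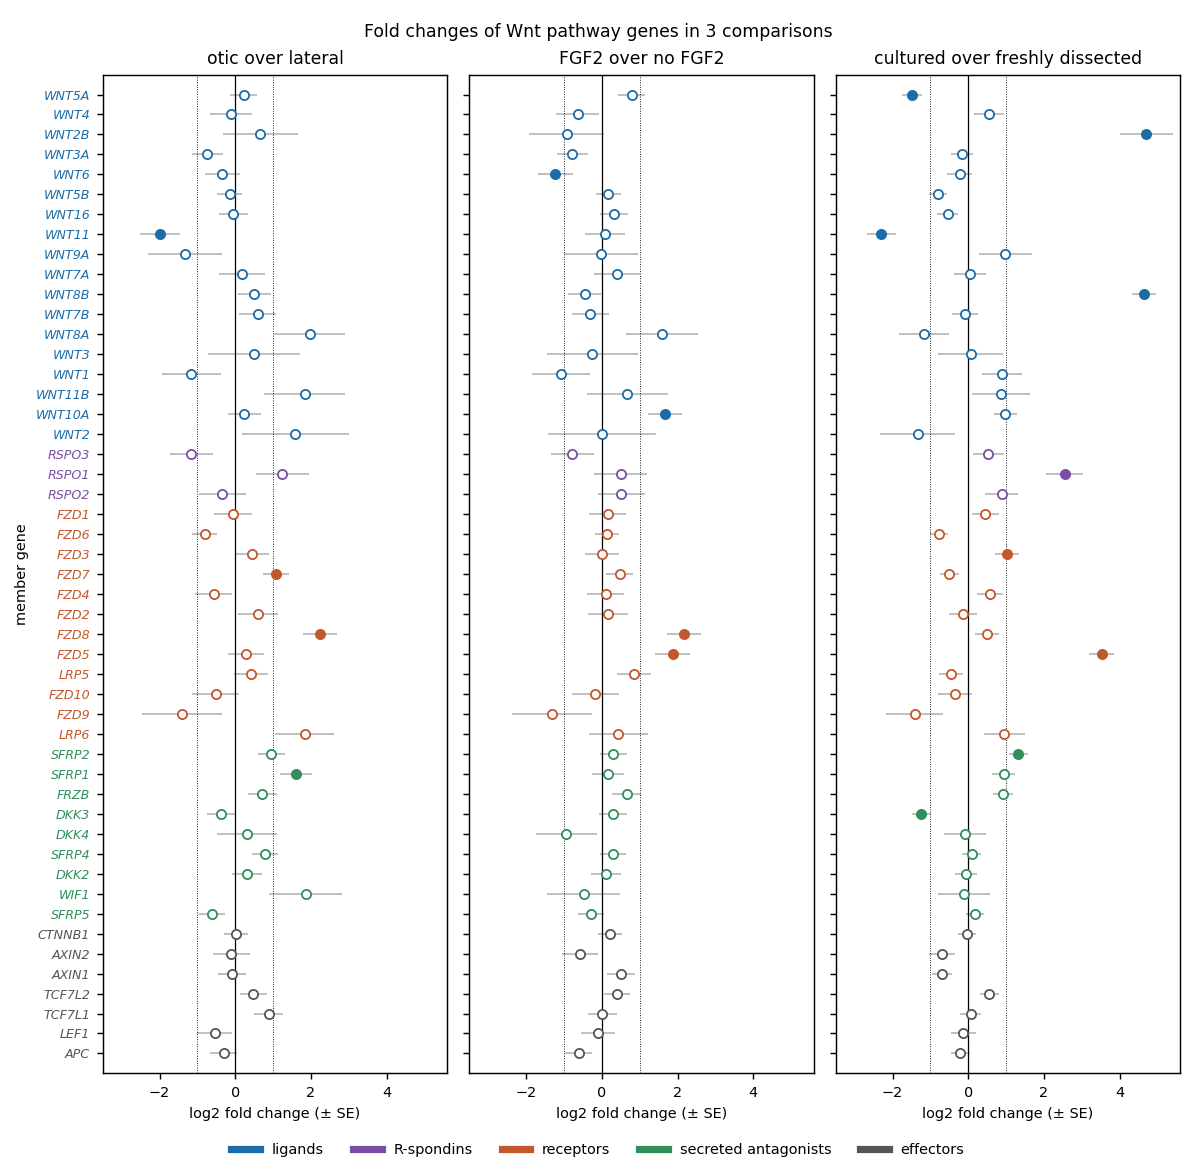
Log2 difference (horizontal axis) of the 49 members in the 3 comparisons, otic against lateral ectoderm, FGF2 against no FGF2, and cultured against fresh tissue. Points are limma estimates with bars of 1 SE, filled where the fold exceeds 2 and the unadjusted p is below 0.05, and dotted lines mark a log2 difference of 1 either way. FZD8 is filled on the right in the first 2 comparisons, and the largest values, WNT2B at 4.70 and WNT8B at 4.64, are in the third.

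WNT8B, a ligand of the forebrain and midbrain in vertebrate embryos, read 2.0, 2.4, 1.5 and 1.6 on the 4 fresh arrays. The cultured arrays read 45.8 and 62.8 without FGF2 and 54.6 and 28.2 with it. All 4 fresh values were near the floor, and 3 of the 4 cultured values exceeded the array median. The log2 difference was 4.64 (SE 0.31, adjusted p = 0.015). The floor changed none of these values, but the size of the difference depends on how such low fresh values enter the log2. With an offset of 32 added first it was 1.22. WNT2B, a ligand expressed in the embryonic eye, read 11.7 and 51.0 in otic and 31.9 and 7.5 in lateral ectoderm. The cultured arrays read 503.2, 973.0, 242.5 and 554.5, and each was more than 4 times the brightest fresh array. The difference was 4.70 (SE 0.70, adjusted p = 0.059), and the second WNT2B probe set gave 4.28 (SE 0.46, adjusted p = 0.032).

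FZD5 reached at most 70.4 on the 4 fresh arrays and at least 330.3 on the 4 cultured ones, a log2 difference of 3.52 (SE 0.33, adjusted p = 0.025). Its group means were 50.4 in lateral and 61.5 in otic ectoderm, whose arrays overlapped, and 333 in untreated and 1220 in treated trigeminal ectoderm. The 2 dimmer FZD5 probe sets gave -0.12 (SE 0.77) and 0.69 (SE 0.48) in this contrast, neither called. FZD3, a Frizzled used in axon guidance and polarity, read 471.3, 486.0, 239.8 and 522.2 in fresh and 801.0, 864.0, 873.2 and 804.1 in cultured tissue. The cultured arrays were all higher, but the difference of 1.02 (SE 0.31, adjusted p = 0.26) lay at the limit and was no longer past it without lateral array 1 (0.74), without untreated array 2 or without treated array 1 (0.99 each). FZD3 probe sets did not agree: the 3 dimmer ones gave 0.93, 0 and -0.31, none called. FZD8, high in 1 fresh and 1 cultured group, was not called here (0.49, SE 0.32).

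RSPO1 read 21.4 and 20.8 in otic, 4.4 and 18.1 in lateral, 51.0 and 88.7 in untreated and 111.9 and 80.3 in treated trigeminal ectoderm. All cultured arrays exceeded their array medians and no fresh array did. The log2 difference was 2.54 (SE 0.50, adjusted p = 0.10). SFRP2 read 3681.8, 5043.2, 5267.2 and 5326.2 on the cultured arrays, each above the fresh maximum of 3017.1. Its difference was 1.32 (SE 0.25, adjusted p = 0.10).

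WNT5A read 1273.6, 1607.7, 1147.3 and 1321.6 in fresh tissue and 429.6, 303.1, 575.9 and 675.9 in culture. The fresh arrays were all above the cultured ones, and the log2 difference was -1.48 (SE 0.26, adjusted p = 0.080). Of the 3 other WNT5A probe sets, 2 gave -1.44 and -1.42 and the dimmest gave -0.12 (SE 0.86). WNT11 lay between 41.8 and 52.2 on the cultured arrays and at 75.8 or more on the fresh ones (-2.30, SE 0.38, adjusted p = 0.071), and both of its dimmer probe sets were called as lower too. DKK3 read 693.4, 509.6, 793.4 and 675.2 in culture, below the fresh minimum of 1177.8 (-1.24, SE 0.26, adjusted p = 0.12).

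Markers of other tissues shifted with this contrast as well. Of 11 endothelium and blood markers 7 (63.6%) were lower in the cultured tissue, against 4.37% of all genes. The summed intensity of all 11 was 434 to 499 without FGF2 and 584 to 650 with it, against 2410 to 6360 on the fresh arrays. The mesenchyme markers summed to 1740 to 2990 in culture and 2580 to 8790 in fresh tissue, with 3 of 11 lower. COL3A1 (3056.2 and 4681.1) made up much of the sums on the lateral arrays. Of 10 endoderm and notochord markers 3 were lower. On the other side, 3 of 7 neural crest markers were higher, with sums of 4040 to 5960 in culture and 714 to 1630 in fresh tissue, and 3 of 8 neural tube markers were higher (ZIC1 at 7.55, PAX7 at 3.65 and ZIC2 at 3.30) while HOXB1, a hindbrain gene, was lower (-4.49). The neural tube sums were 3500 to 7270 in culture and 920 to 4320 in fresh tissue. ZIC1 and ZIC2 made up most of these sums in culture, at 1410.5 or more and 1240.5 or more. SOX10 and TFAP2B, at 1228.4 or more and 949.3 or more, made up most of the neural crest sums there. The sums alone therefore do not show a shift of either whole list. PAX6 and SIX3, genes of the anterior head and eye field, read at least 1671.9 and 967.8 in culture and at most 44.3 and 41.3 in fresh tissue. No marker of these lists was at the floor on both arrays of a group. The part of these tissues in the WNT2B, WNT8B, FZD5, RSPO1, SFRP2, FZD3, WNT5A, WNT11 and DKK3 values was not tested.

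Further members reached an unadjusted p below 0.05 without a fold of 2. These were FZD6 at -0.78 (SE 0.23), WNT5B at -0.81 (SE 0.24), AXIN1 at -0.70 (SE 0.26), FRZB at 0.91 (SE 0.27), SFRP1 at 0.93 (SE 0.30) and WNT10A at 0.98 (SE 0.31). No effector was called on its brightest probe set: CTNNB1 had a difference of -0.04 (SE 0.23), LEF1 of -0.13 (SE 0.32) and AXIN2 of -0.69 (SE 0.34, adjusted p = 0.49). A dim APC probe set was called lower at -2.77 (SE 0.44), whereas the brightest APC probe set gave -0.21 (SE 0.26). A dim AXIN1 probe set was called higher at 1.33 (SE 0.36), opposite to the brightest one. Of the 49 members 6 lay with all cultured arrays above all fresh ones (12.2%, against 5.01% of all genes) and 6 with all below (12.2%, against 4.94%), around a median of 0.04 that was close to the 0.02 over all genes.

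Across the 4 groups the members fell into a few shapes. CTNNB1 was the most even of all, with a highest to lowest ratio of 1.26 over the 8 arrays. FZD1, another Frizzled, read 1485.6 and 3471.1 in otic, 2296.4 and 2432.1 in lateral, 2569.8 and 3479.9 in untreated and 2891.6 and 3874.2 in treated trigeminal ectoderm. Its groups overlapped in all 3 comparisons, and the 2 otic arrays differed most. WNT4, a ligand of kidney and gonad development, read 512.9 on the second untreated trigeminal array and between 121.4 and 245.3 on the others. WNT2B had the widest ratio, 130, and FZD5 followed among the receptors with 43.2. WNT16 was the most even ligand, with a ratio of 1.85.

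The wider pathway was read from lists of genes that are not members. Of all genes 4.86% were called higher and 2.64% lower in otic ectoderm, 2.14% and 1.48% with FGF2, and 5.27% and 4.37% in culture. The lists are short: 1 call is 9.09% of 11 genes and 5.88% of 17. Of 12 measured genes for Wnt secretion and co-receptors, 2 were lower in otic than in lateral ectoderm, KREMEN1, a receptor for Dickkopf proteins (-1.68, SE 0.43), and GPC3, a heparan sulphate proteoglycan (-1.56, SE 0.58), and none was called in the other comparisons. Of 12 measured genes for the cytoplasmic relay none was called anywhere. Of 11 nuclear cofactors only the co-repressor gene CTBP2 was called, higher in otic ectoderm (1.35) and in culture (1.21).

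Among 12 other Wnt inhibitors CER1, a secreted antagonist of Wnt, BMP and Nodal in the frog, read 128.9 and 136.1 in otic and 22.9 and 4.1 in lateral ectoderm (3.77, SE 0.83). It read 2.3 to 4.3 in culture, where it was called lower (-3.55). DACT1, which binds Dishevelled, was also lower in culture (-3.06, adjusted p = 0.033), as was NOTUM, which removes the lipid of Wnts (-2.01), and DACT2 was higher (1.69). In culture 25% of this list was called lower. No inhibitor of the list was called with FGF2.

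Of 17 measured target genes, which other signals also control, 2 (11.8%) were higher in otic than in lateral ectoderm. They were the transcription factor gene SP8 (2.48) and the cyclin gene CCND1 (2.16), and MSX2 was lower (-1.77). With FGF2 NRCAM alone was called (1.92), at intensities below 15. In culture SP8 was higher (3.42) and 4 genes (23.5%) were lower. These were CDX4 (-7.43, adjusted p = 0.023) and CDX2 (-2.36), transcription factor genes of the posterior body, with NOTUM again and NRCAM (-1.17). Of 11 genes for planar cell polarity DAAM1, which links Dishevelled to actin, was lower in otic ectoderm (-2.39) and in culture (-2.07), and PRICKLE1 was lower in culture (-2.59).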

How the data were processed

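The deposited table holds intensities of Affymetrix GeneChip Chicken Genome arrays, 1 value per probe set and array, made by the authors, whose processing notes name limma. The sources used here do not give the probe summary, background correction or scaling. Values below 1 were set to 1 and log2 was taken without further scaling. Of 38535 probe sets 96 controls were left out. Of the other 38439, 27168 carry 1 gene symbol, 177 several and 11094 none. All 97 member probe sets kept their symbol in the RefSeq annotation.

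A limma model (version 3.58.1, R 4.3.3) with 1 mean per group was fitted to the 8 arrays, with moderated variances and Benjamini-Hochberg adjustment over 38439 probe sets. A gene was called on its brightest probe set at a fold over 2 and an unadjusted p below 0.05. With 2 arrays a group, precision is limited by the number of arrays.

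Values on every array were given for called members, for FZD8, FZD5 and SFRP1, for the brightest member of each role, and for CTNNB1, LEF1 and AXIN2. Some members near the limits were added after their values were seen. Members and lists were chosen with earlier results of these data known. Replicate numbers were not used to pair the arrays in the main model. Alternatives covered scaling, dim probe sets, the variance prior, the floor, the probe set, the call rule, pairing and each array left out.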

Additional observations from a re-analysis of the deposited data

Results flagged for a closer look

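The effects of tissue (otic against lateral ectoderm) and of FGF2 differed in a test of the difference itself for SFRP1 and WNT11. For SFRP1 the otic effect was 1.60 and the FGF2 effect 0.17, a difference of 1.43 on the log2 scale (limma, SE 0.59, adjusted p = 0.82). For WNT11 the effects were -1.98 and 0.09, a difference of -2.07 (SE 0.75, adjusted p = 0.76). Both had an unadjusted p below 0.05 and neither passed adjustment over all probe sets. FZD5 just missed that unadjusted limit, with an otic effect of 0.29, an FGF2 effect of 1.87 and a difference of -1.58 (SE 0.66). With an array left out the SFRP1 difference lay between 0.97 and 1.90 and kept an unadjusted p below 0.05 only without lateral array 2. The WNT11 difference lay between -2.64 and -1.49 and kept it only without otic array 2 or lateral array 1. All 8 arrays are in this test, and the arrays of the otic and FGF2 effects are separate.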

How the results depend on the processing

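All 17 calls of a member in a comparison were retested on the brightest probe set only. Of these, 12 held under the fold and unadjusted p limits in every setting that tested them, and none of the 17 changed direction. Other probe sets of a gene were not among these settings. The second FZD8 probe set was called the opposite way with FGF2 (-2.51 against 2.17). Some dimmer probe sets of FZD5, FZD3 and SFRP1 also pointed the other way, without a call. WNT8B and WNT10A were not tested without the dim 40% of probe sets. The 5 lost in some settings were FZD7 and WNT11 (otic), WNT6 and WNT10A (FGF2) and FZD3 (culture). With quantile normalization, 2 members were lower in otic ectoderm (1 as reported). In the test of the difference 3 were called with the otic effect below the FGF2 effect (1 as reported), namely FZD5, WNT10A and WNT11. With median centring these counts were 3 and 4, and 0 members had the larger otic effect (1 as reported). With the variance trend they were 2 and 2. The offset of 32 left 0 members lower with FGF2. In the difference the offset and leaving out dim probe sets each gave 2 lower. FZD5 was among the members called lower in the difference in each of these settings. In the main model FZD5 and WNT10A had otic effects of 0.29 and 0.24 and FGF2 effects of 1.87 and 1.67. Counting any probe set of a gene gave 3 lower in otic ectoderm, 4 lower with FGF2 and 4 higher in the difference. Requiring an adjusted p left 0 members in either direction in the otic comparison, the FGF2 comparison and the difference, and 2 higher and 0 lower in culture.

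With single arrays left out, the otic comparison had 3 to 6 members higher (6 without lateral array 2, 5 without otic array 1) and 0 to 3 lower (0 without lateral array 2, 3 without otic array 2). The FGF2 comparison had 3 to 4 higher and 0 to 1 lower, the cultured contrast 5 to 10 higher (10 without lateral array 2) and 3 to 5 lower (5 without lateral array 1), and the difference 0 to 3 in either direction. Where a group kept 1 array, it was assumed to vary like the others.

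The differences between replicates 1 and 2 were uncorrelated between groups (-0.02 to 0.03 over probe sets, 2 numbers). Such a correlation does not show a shift common to most probe sets. The 75th percentile of intensity was higher on array 2 in every group. It was 130.9 and 165.7 in otic and 116.6 and 143.4 in lateral ectoderm. In trigeminal ectoderm it was 125.6 and 144.9 without and 145.5 and 146.1 with FGF2. Whether the numbers pair the arrays therefore stays undecided. With the replicate block 0 members were lower with FGF2 and 0 had the larger otic effect. Of the 2 members with an adjusted p below 0.05 in culture, 0 remained with the block. In other settings there were more or as many: 10 with the variance trend, 10 with the offset, 7 without dim probe sets, 3 with quantile normalization and 2 with median centring. In the otic comparison 23 genes higher and 5 lower had an adjusted p below 0.05 with the variance trend, none of them a member. Over all genes the offset of 32 gave 286 higher and 189 lower in otic ectoderm (632 and 344 as reported), 118 and 40 with FGF2 (279 and 192) and 328 and 276 in culture (685 and 569). Quantile normalization gave 433 and 504 genes in otic ectoderm and median centring 416 and 507. The causes were not tested.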
